A study of Mus musculus with 5 samples.

Results

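Expression of 5 cytochrome P450 (P450) genes, Cyp1b1, Cyp2e1, Cyp2f2, Cyp4b1 and Cyp7b1, and of 3 flavin monooxygenase (FMO) genes, Fmo1, Fmo2 and Fmo5, was followed across sorted progenitor cells of mouse fat. These 8 genes were taken by symbol from the 54532 genes of the count table, and all 8 passed the filter on low counts that left 15920 genes for testing. P450 enzymes are heme proteins of the endoplasmic reticulum or mitochondrion that insert an atom of molecular oxygen into a substrate, with electrons from NADPH passed on by P450 oxidoreductase or by ferredoxin. FMO enzymes carry a bound flavin, take electrons from NADPH directly and oxygenate soft nitrogen and sulfur atoms of drugs and dietary amines. Both families are best known from the liver, but some members are typical of other tissues, such as Cyp1b1 in mesenchymal cells and Cyp2f2 in the club cells of the mouse airway.

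The study set progenitors of subcutaneous (SAT) and visceral (VAT) fat apart by CD26, the peptidase encoded by Dpp4, and CD142, the tissue factor encoded by F3. All mice were wild type (WT) and on a chow diet, and the stromal cells came from 30 mice aged 12 to 14 weeks. Live cells were depleted of CD31+ endothelial and CD45+ immune cells by sorting, and poly(A) RNA was sequenced as bulk libraries. By title there was 1 library of SAT CD26+CD142- cells, 1 of SAT CD26-CD142+ cells, 1 of VAT CD26+CD142+ cells and 2 of VAT CD26-CD142+ cells. The labels do not say whether libraries came from separate pools of mice, so the p-values measure only the spread between these libraries, which may be technical. Where depots are compared over all gates, each depot holds libraries of different gates. That spread and the standard deviations (SD) then also hold differences between gates. In bulk libraries, fewer cells of a type and less RNA per cell cannot be told apart.

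Titles and library names disagree for SAT. SAT library 1 has CD26+CD142- in its title and CD142 in its name. SAT library 2 has CD26-CD142+ in its title and CD26 in its name. The sort genes followed the names: Dpp4 was at 6.58 CPM (counts per 1000000, scaled for library composition) in SAT library 1 and 1007 CPM in SAT library 2, and F3 was at 618 CPM in SAT library 1 and 5.32 CPM in SAT library 2. No library was reassigned from its values, and every comparison that uses a SAT gate is given under both readings.

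Total counts ran from 21706345 to 25357403. The share of mitochondrially encoded genes was 2.83% in the library numbered 1 of SAT and 4.33% in that of VAT, against 0.554% to 0.633% in the 3 libraries numbered 2. The progenitor marker Pdgfra was at 682 to 1173 CPM in the 5 libraries, the CD31 gene Pecam1 at 2.32 to 7.26 CPM and the CD45 gene Ptprc at 0.183 to 0.989 CPM. The libraries numbered 1 also held low levels of liver transcripts, which are set out after the P450 genes. SAT library 1 alone held epithelial transcripts: the 7 mammary and skin markers summed to 55.8 CPM there, led by Epcam at 25.2 and Csn3 at 17.0 CPM, and to at most 0.618 CPM in any other library.

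On mm10, Cyp1b1 (ENSMUSG00000024087) lies on chromosome 17 from 79706953 to 79715041, Cyp2e1 (ENSMUSG00000025479) on chromosome 7 from 140763739 to 140774987, and Cyp2f2 (ENSMUSG00000052974) on chromosome 7 from 27119909 to 27133660. Cyp4b1 (ENSMUSG00000028713) lies on chromosome 4 from 115624725 to 115647723 and Cyp7b1 (ENSMUSG00000039519) on chromosome 3 from 18071950 to 18243338. Fmo1 (ENSMUSG00000040181, chromosome 1, 162829561 to 162866610) and Fmo2 (ENSMUSG00000040170, chromosome 1, 162874317 to 162898726) are neighbours on the minus strand with 7706 bases between them. Fmo5 (ENSMUSG00000028088) stands apart on chromosome 3, 97628804 to 97655282. Values are counts over whole protein-coding genes as annotated. The minus-strand gene Gm15883 overlaps Cyp2f2, which is on the plus strand, and had at most 7 counts in any library.

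Promoter sequences from RefSeq (GRCm38.p6) were found for 6 of the 8 genes; Cyp7b1 and Fmo1 had no entry. The 250 bases before the RefSeq start are shown for 4 P450 genes: Cyp1b1, which had the highest level per length of the 5 in every library, Cyp2e1, which followed the liver transcripts, and Cyp2f2 and Cyp4b1, which passed tests between gates or depots. Capitals mark 3 motifs searched on both strands, which do not overlap here: GCGTG, the core to which the aryl hydrocarbon receptor (AHR) binds, TATAAA and CCAAT.
Cyp1b1, chr17:79715062-79715311, minus strand: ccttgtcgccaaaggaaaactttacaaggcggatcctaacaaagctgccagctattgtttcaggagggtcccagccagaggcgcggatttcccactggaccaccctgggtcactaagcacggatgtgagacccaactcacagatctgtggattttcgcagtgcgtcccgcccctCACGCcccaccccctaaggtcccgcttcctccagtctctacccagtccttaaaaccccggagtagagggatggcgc
Cyp2e1, chr7:140763569-140763818, plus strand: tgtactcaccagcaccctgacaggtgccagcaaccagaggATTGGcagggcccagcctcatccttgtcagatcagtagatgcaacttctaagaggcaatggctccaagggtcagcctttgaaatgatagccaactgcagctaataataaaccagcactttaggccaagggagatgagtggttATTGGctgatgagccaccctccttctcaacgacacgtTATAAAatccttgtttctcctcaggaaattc
Cyp2f2, chr7:27119705-27119954, plus strand: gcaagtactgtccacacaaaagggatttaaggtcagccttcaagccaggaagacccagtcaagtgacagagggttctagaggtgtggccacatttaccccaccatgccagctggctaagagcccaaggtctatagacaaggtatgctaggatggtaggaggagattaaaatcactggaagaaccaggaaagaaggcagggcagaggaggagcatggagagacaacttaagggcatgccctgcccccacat
Cyp4b1, chr4:115647722-115647971, minus strand: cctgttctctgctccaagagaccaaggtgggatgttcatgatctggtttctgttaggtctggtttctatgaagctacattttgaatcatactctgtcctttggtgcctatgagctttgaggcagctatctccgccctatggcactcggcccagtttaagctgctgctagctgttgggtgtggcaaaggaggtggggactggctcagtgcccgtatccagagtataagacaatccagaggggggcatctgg

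In Cyp1b1 the AHR core stands on the opposite strand, 76 bases before the start. That core was found in 28.16% of the 32851 promoter windows of the same length. In Cyp2e1, TATAAA stands 31 bases before the start, a motif held by 12.37% of windows, and CCAAT stands on the opposite strand 210 and 68 bases before it, a motif held by 33.85%. The Cyp2f2 and Cyp4b1 windows hold none of these letters. A match is a description of the sequence, and binding was not measured.

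Per length of gene, Fmo2, Fmo1 and Cyp1b1 were the 3 highest of the 8 in 4 of 5 libraries, the exception being SAT library 2. In length-scaled CPM (RPKM), Fmo2 was highest in 4 of 5 libraries, at 163 in SAT library 1, 84.0 in the VAT CD26+CD142+ library and 111 and 150 in the VAT CD26-CD142+ libraries 1 and 2, but at 8.18 in SAT library 2. There Cyp1b1 was highest, at 14.4 RPKM, followed by Fmo1 at 11.9 and Cyp4b1 at 10.8 RPKM. The other 5 genes stayed at or below 33.2 RPKM in every library, a value that Cyp2f2 reached in SAT library 1.

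**Figure D1:**
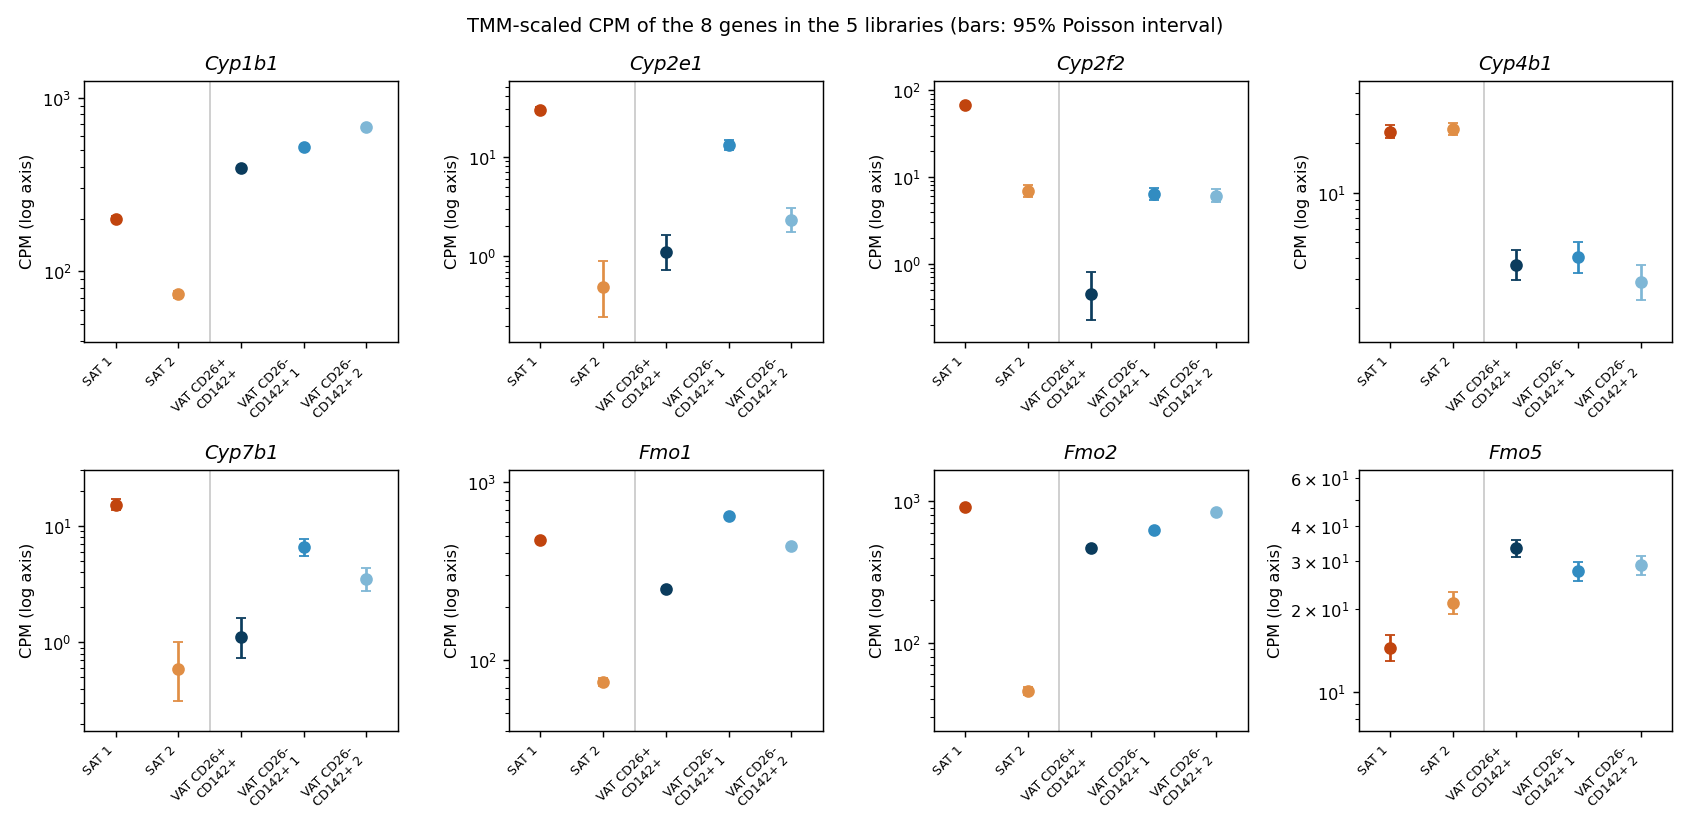
CPM on a log axis, 1 panel per gene with its own axis and 1 point per library, SAT left of the line and VAT right of it; bars are 95% Poisson intervals, which cover counting error only. Cyp4b1 sits higher and Fmo5 lower in both SAT libraries than in any VAT library, while SAT library 2 holds the lowest point of Cyp1b1, Cyp2e1, Cyp7b1, Fmo1 and Fmo2.

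Cyp1b1, which oxidises polycyclic hydrocarbons, estradiol and retinoids and is an AHR target, was lower in both SAT libraries than in any VAT library. It was at 201 CPM in SAT library 1 and 73.9 CPM in SAT library 2, and at 391 CPM in the VAT CD26+CD142+ library and 521 and 681 CPM in the VAT CD26-CD142+ libraries 1 and 2. The depots did not overlap, with means of 138 ± 89.9 CPM in SAT and 531 ± 145 CPM in VAT (SD, n = 2 and 3). Over all gates the log2 difference, SAT minus VAT, was -1.95 (SE 0.55) and did not pass (edgeR adjusted p = 0.510). SAT library 2, titled CD26-CD142+, was lower than the VAT CD26-CD142+ pair by a log2 difference of -3.02 (SE 0.60, adjusted p = 0.0044). SAT library 1, named for CD142, differed from that pair by -1.58 (edgeR adjusted p = 0.238). DESeq2 called that difference, at -1.57 (adjusted p = 0.0400).

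Cyp4b1, a P450 that in the mouse turns ipomeanol and other furans into reactive products and hydroxylates fatty acids, was higher in both SAT libraries than in any VAT library. It was at 23.5 and 24.3 CPM in SAT libraries 1 and 2, against 3.67 CPM in the VAT CD26+CD142+ library and 4.08 and 2.88 CPM in the VAT CD26-CD142+ libraries. The depots did not overlap, and the SAT libraries differed from each other by less than counting error, with a ratio of 0.968 (95% interval 0.858 to 1.09). Over all gates the log2 difference of SAT from VAT was 2.75 (SE 0.27), which missed the threshold with an adjusted p of 0.125. Within CD142+ cells SAT was higher under both readings of the labels. The difference was 2.75 (SE 0.51, adjusted p = 0.0066) by library name and 2.80 (SE 0.51, adjusted p = 0.0023) by title. The VAT gates differed by 0.08 (SE 0.54), whose adjusted p was 1.

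Cyp2f2, which in mouse airways turns naphthalene into a toxic epoxide, differed by gate in VAT. It was at 67.2 CPM in SAT library 1 and 6.90 CPM in SAT library 2, and at 0.453 CPM in the VAT CD26+CD142+ library and 6.42 and 6.11 CPM in the VAT CD26-CD142+ libraries. SAT library 1 stood far above the other 4 libraries, and the VAT CD26+CD142+ library, with 11 counts, far below them. The gene was lower in VAT CD26+CD142+ than in VAT CD26-CD142+ cells by a log2 difference of -3.77 (SE 0.65, edgeR adjusted p = 0.0061), but limma-voom on the same counts gave an adjusted p of 0.161. Within CD142+ cells by library name, SAT was higher, with a log2 difference of 3.42 (SE 0.47, adjusted p = 6e-04). The reading by title gave 0.14 (adjusted p = 0.983).

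The 5 airway markers, Scgb1a1 of club cells among them, were measured beside it and summed to 1.60 and 0.857 CPM in SAT libraries 1 and 2, 2.51 CPM in the VAT CD26+CD142+ library and 3.85 and 4.13 CPM in the VAT CD26-CD142+ libraries. Only 1 of the 5, Scgb1a1, passed the filter on low counts, and the other 4 had 0 counts in SAT library 1 and in the VAT CD26+CD142+ library, so the sums rest on Scgb1a1. The 8 adipocyte markers, mostly Lpl and Fabp4, summed to 2153 and 264 CPM in SAT libraries 1 and 2, 368 CPM in the VAT CD26+CD142+ library and 1544 and 827 CPM in the VAT CD26-CD142+ libraries. Within SAT and between the VAT gates they were higher in the same libraries as Cyp2f2, Cyp2e1, Cyp7b1, Fmo1 and Fmo2, and their part in those results was not tested. Adipoq and Plin1, the genes of adiponectin and perilipin, were at most 5.32 and 12.9 CPM, and Adipoq had 0 counts in SAT library 2. All 7 tested adipocyte markers were lower in VAT CD26+CD142+ than in VAT CD26-CD142+ cells. The median log2 difference was -2.25, and that of Plin1 was -7.61. Within CD142+ cells the median, SAT minus VAT, was -4.12 by title and 0.14 by library name.

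The 5 endothelial markers, Pecam1 among them, summed to 30.3 and 310 CPM in SAT libraries 1 and 2, 298 CPM in the VAT CD26+CD142+ library and 69.7 and 73.5 CPM in the VAT CD26-CD142+ libraries. Most of each sum was Tek, the angiopoietin receptor gene, at 19.9 and 290 CPM, 286 CPM, and 58.9 and 66.7 CPM in the same libraries. The sums were highest in the pair of libraries where Cyp2e1, Cyp7b1, Fmo1 and Fmo2 were lowest, SAT library 2 and VAT CD26+CD142+. Tek was higher in VAT CD26+CD142+ than in VAT CD26-CD142+ cells by a log2 difference of 2.19 (SE 0.46, edgeR adjusted p = 0.0217). Of the 5 markers, 3 were higher and 2 lower in VAT CD26+CD142+ cells, and Tek alone passed. In SAT library 1, 1 marker was higher and 4 were lower than in SAT library 2. None of the 5 passed between SAT and VAT over all gates. The part of these markers in the results was not tested.

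Cyp2e1, the ethanol-inducible P450 of liver, and Cyp7b1, which hydroxylates oxysterols and steroids, were high in the libraries numbered 1. Cyp2e1 was at 29.4 CPM in SAT library 1 and 0.496 CPM in SAT library 2, and at 1.11 CPM in the VAT CD26+CD142+ library and 13.1 and 2.32 CPM in the VAT CD26-CD142+ libraries 1 and 2. Cyp7b1 was at 15.1 CPM in SAT library 1 and 0.586 CPM in SAT library 2, and at 1.11 CPM in the VAT CD26+CD142+ library and 6.56 and 3.48 CPM in the VAT CD26-CD142+ libraries. Both genes were highest in SAT library 1, next in VAT CD26-CD142+ library 1, and lowest in SAT library 2, so the depots overlapped.

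Between the 2 VAT CD26-CD142+ libraries, which carry the same labels, Cyp2e1 differed 5.65-fold and Cyp7b1 1.88-fold. For Cyp2e1 that is the widest gap of the 8 genes; the other members differed 1.05-fold to 1.48-fold there. Over all gates the SAT minus VAT log2 differences were 1.44 (SE 1.62) for Cyp2e1 and 1.08 (SE 1.29) for Cyp7b1, both with an adjusted p of 1.00. Each turned negative when only the libraries numbered 2 were compared, to -1.79 and -1.97. By title, Cyp7b1 was lower in SAT library 2 than in VAT CD26-CD142+ cells by -3.09 (SE 0.82, edgeR adjusted p = 0.0309). With limma-voom the call was lost, at -2.97 (adjusted p = 0.182).

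Liver transcripts moved with these genes. The 26 liver genes that are not P450 genes, such as Alb, Apoa1 and Serpina3k, summed to 456 CPM in SAT library 1 and 11.3 CPM in SAT library 2, and to 14.2 CPM in the VAT CD26+CD142+ library and 213 and 19.5 CPM in the VAT CD26-CD142+ libraries 1 and 2. All 26 were highest in the libraries numbered 1, with both above the other 3, as were 24.2% of the tested genes and 3 of the 8 described here, Cyp2e1, Cyp7b1 and Fmo1. Alb, the gene of serum albumin, had 2439 and 88 counts in SAT libraries 1 and 2, 95 in the VAT CD26+CD142+ library and 1150 and 87 in the VAT CD26-CD142+ libraries.

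The counts of the P450 genes were also set against those liver counts. Cyp2e1 came to 6.45% and 4.38% of the summed liver counts in SAT libraries 1 and 2, 7.83% in the VAT CD26+CD142+ library and 6.15% and 11.9% in the VAT CD26-CD142+ libraries. Cyp7b1 ran at 3.31% and 5.18%, 7.83%, and 3.07% and 17.9% in the same libraries. Cyp2f2 ran at 14.7% and 61.0% in SAT libraries 1 and 2, 3.19% in the VAT CD26+CD142+ library and 3.01% and 31.3% in the VAT CD26-CD142+ libraries. The part of the liver transcripts in the Cyp2e1 and Cyp7b1 values was not tested.

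**Figure D2:**
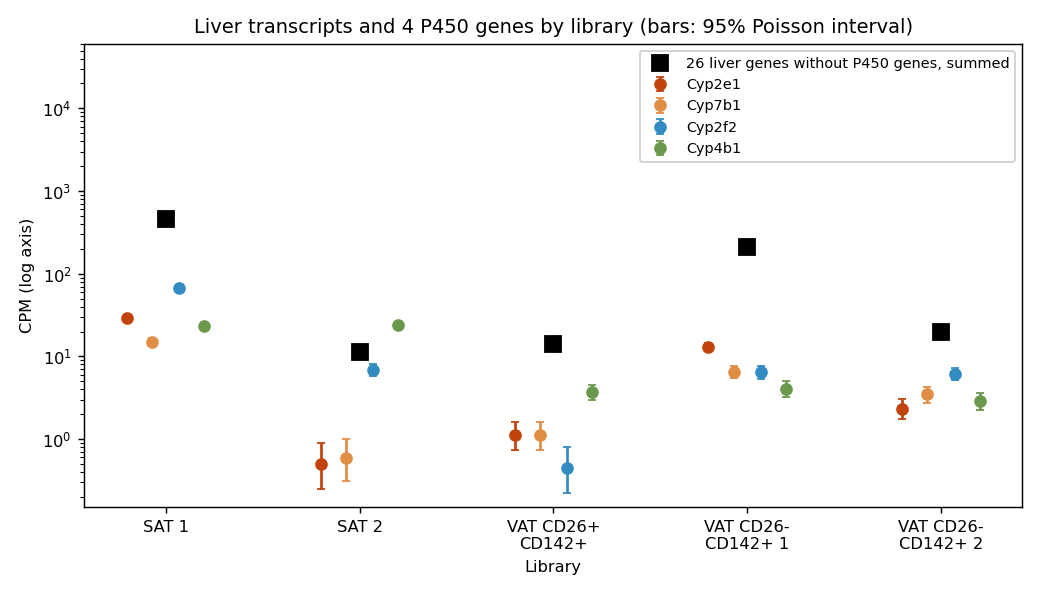
CPM on a log axis for 4 P450 genes (circles) and for the sum of 26 liver genes without P450 genes (squares) in each library; bars on the circles are 95% Poisson intervals. The squares stand at 456 and 213 CPM in the libraries numbered 1 against at most 19.5 CPM elsewhere, and Cyp2e1 is highest in the same libraries, while Cyp4b1 is level across the SAT libraries.

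Fmo1 and Fmo2, which oxygenate amines and sulfur compounds and which lie side by side, were abundant everywhere but in SAT library 2. Fmo1 was at 475 CPM in SAT library 1 and 75.3 CPM in SAT library 2, and at 252 CPM in the VAT CD26+CD142+ library and 644 and 436 CPM in the VAT CD26-CD142+ libraries. Fmo2, best known from lung, was at 914 CPM in SAT library 1 and 45.9 CPM in SAT library 2, and at 471 CPM in the VAT CD26+CD142+ library and 623 and 840 CPM in the VAT CD26-CD142+ libraries. SAT library 2 was the lowest for both genes, the VAT CD26+CD142+ library was next, and the depots overlapped.

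By title, SAT library 2 was lower than the VAT CD26-CD142+ pair for Fmo1 by a log2 difference of -2.84 (SE 0.60, adjusted p = 0.0074) and for Fmo2 by -3.99 (SE 0.66, adjusted p = 0.00099). By library name, SAT library 1 differed from that pair by -0.18 (SE 0.52) for Fmo1 and 0.32 (SE 0.52) for Fmo2, both with an adjusted p of 0.990. The VAT gates differed by -1.10 for Fmo1 (SE 0.55, adjusted p = 0.675) and by -0.63 for Fmo2 (SE 0.54, adjusted p = 1).

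Fmo4 and Fmo6, which lie in the same chromosome 1 cluster, were scarce and were also lowest in SAT library 2. Fmo4 had 63 and 8 counts in SAT libraries 1 and 2, 26 in the VAT CD26+CD142+ library and 65 and 72 in the VAT CD26-CD142+ libraries. Fmo6 had 39 and 0 counts in SAT libraries 1 and 2, 6 in the VAT CD26+CD142+ library and 17 and 30 in the VAT CD26-CD142+ libraries. A count of 0 does not show absence, and a fixed allowance of up to 3 counts was taken for it. Neither gene passed the test between depots over all gates.

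Fmo5 on chromosome 3, which unlike its relatives inserts oxygen beside a carbonyl carbon, had the narrowest range of the 8. It was at 14.5 and 21.0 CPM in SAT libraries 1 and 2, against 33.3 CPM in the VAT CD26+CD142+ library and 27.5 and 28.8 CPM in the VAT CD26-CD142+ libraries. Both SAT libraries were below all 3 VAT libraries, with means of 17.8 ± 4.61 CPM in SAT and 29.8 ± 3.04 CPM in VAT (SD, n = 2 and 3). The log2 difference of -0.75 (SE 0.26) did not pass (adjusted p = 0.629). The VAT gates differed by 0.24 (SE 0.47, adjusted p = 1).

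**Figure D3:**
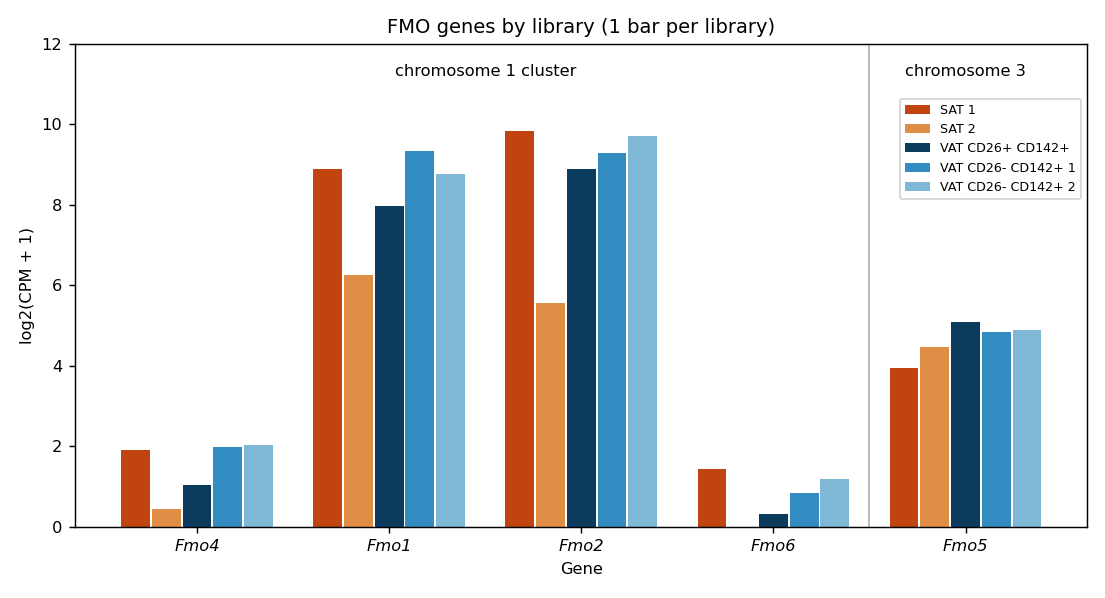
FMO genes as log2(CPM + 1), with 1 bar per library and a gene of chromosome 3 set apart from those of the chromosome 1 cluster; bars are compared within a gene only and have no error bar because each is 1 library. In Fmo4, Fmo1, Fmo2 and Fmo6, SAT library 2 has the lowest bar or none, and in Fmo5 SAT library 1 does.

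Counted over the 8 genes, none passed between SAT and VAT over all gates, where edgeR called 0.0503% of tested genes, or 8. At an unadjusted p under 0.05 there were 3 of the 8, Cyp1b1, Cyp4b1 and Fmo5, against 6.76% of tested genes. DESeq2 called 2, Cyp1b1 and Cyp4b1, against 2.92% of genes, and limma-voom called 0, against 0% of genes. The libraries of the depots did not overlap for 4 of the 8 genes, Cyp2f2 and Cyp4b1 higher in SAT and Cyp1b1 and Fmo5 lower, against 19.8% of tested genes. Without SAT library 1 the Cyp2e1 and Cyp7b1 differences turned to -3.47 and -2.66, and without SAT library 2 those of Fmo1 and Fmo2 turned to 0.09 and 0.50.

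In VAT, 1 of the 8 genes, Cyp2f2, was called between CD26+CD142+ and CD26-CD142+ cells, against 1.6% of tested genes. For Cyp2e1 the log2 difference was -2.79 (SE 1.14, adjusted p = 0.583), for Cyp7b1 -2.17 (SE 0.76, adjusted p = 0.272) and for Cyp1b1 -0.62 (SE 0.52, adjusted p = 1). This contrast and those within CD142+ cells share the VAT CD26-CD142+ libraries. These tests have 1 residual degree of freedom, from that pair, and each lone library is assumed to vary like it. Mesothelial markers moved with the same contrast: the 8 genes summed to 331 CPM in the VAT CD26+CD142+ library and to 116 and 170 CPM in the VAT CD26-CD142+ libraries, and 3 of the 8, Msln, Krt8 and Krt18, passed. In SAT libraries 1 and 2 they summed to 157 and 4.29 CPM, most of it in library 1 from the keratin genes Krt19, Krt18 and Krt8 at 63.7, 46.7 and 45.8 CPM. Wt1, the 1 of the 8 that passed between SAT and VAT over all gates (adjusted p = 0.0224), had 0 and 1 counts in SAT libraries 1 and 2, 2720 in the VAT CD26+CD142+ library and 2472 and 3589 in the VAT CD26-CD142+ libraries. Wt1 made up most of the sum in each VAT CD26-CD142+ library. Between the VAT gates 7 of the 8 markers were higher in CD26+CD142+ cells, but Wt1 was lower. The part of the mesothelial markers in the gate and depot results was not tested.

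Read by library name, CD26+ cells of both depots were set against CD26- cells with depot as a term. In VAT both gates are CD142+, but in SAT the gate named for CD26 is not named for CD142. The comparison thus does not separate CD26 from CD142 in SAT, and the same holds by title. Nor does it separate gate from library number in SAT, under either reading. Again 1 of the 8, Cyp2f2, was called, with a log2 difference of -3.50 (SE 0.29, adjusted p = 0.0368), against 0.597% of tested genes. The other 7 did not pass, with -3.97 for Cyp2e1 (adjusted p = 0.212), -3.15 for Cyp7b1 (0.153), -1.96 for Fmo2 (0.363), -1.73 for Fmo1 (0.189), -0.96 for Cyp1b1 (0.257), 0.06 for Cyp4b1 (0.921) and 0.37 for Fmo5 (0.442). DESeq2 called 5 of the 8 in this comparison, Cyp2e1, Cyp2f2, Cyp7b1, Fmo1 and Fmo2, all lower in CD26+ cells, against 8.4% of tested genes.

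Read by title, the same comparison called none of the 8 genes and 0% of tested genes with edgeR. No member reached an unadjusted p under 0.05, and 140 of the tested genes, or 0.879%, did. DESeq2 called 0.101% of genes, or 16, and limma-voom 0%, with 0 members in either. The differences ran from -0.22 for Cyp2f2, -0.08 for Fmo5 and 0.02 for Cyp4b1 through 0.31 for Cyp1b1, 0.63 for Fmo1 and 1.01 for Cyp7b1 to 1.25 for Cyp2e1 and 1.67 for Fmo2.

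Within CD142+ cells the call also turned on the reading. By library name 2 of the 8, Cyp2f2 and Cyp4b1, were higher in SAT, against 2.36% of genes called in either direction. The members not yet given differed by 1.93 for Cyp2e1 (adjusted p = 0.648), 1.59 for Cyp7b1 (0.360) and -0.96 for Fmo5 (0.629). By title 5 of the 8 were called, Cyp4b1 higher and Cyp1b1, Cyp7b1, Fmo1 and Fmo2 lower in SAT, against 6.48% of genes. Cyp2e1, at -3.94 (adjusted p = 0.178), and Fmo5, at -0.42 (adjusted p = 0.897), did not pass by title. DESeq2 called 6 of the 8 by title, Cyp2e1 added (adjusted p = 0.00225), against 7.05% of genes. With limma-voom there were 4, Cyp7b1 lost, against 5.39% of genes. By library name DESeq2 called 3 of the 8, Cyp1b1 added as lower in SAT, and 452 of the 15920 tested genes. There limma-voom called 2 of the 8 and 313 of the tested genes.

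**Figure D4:**
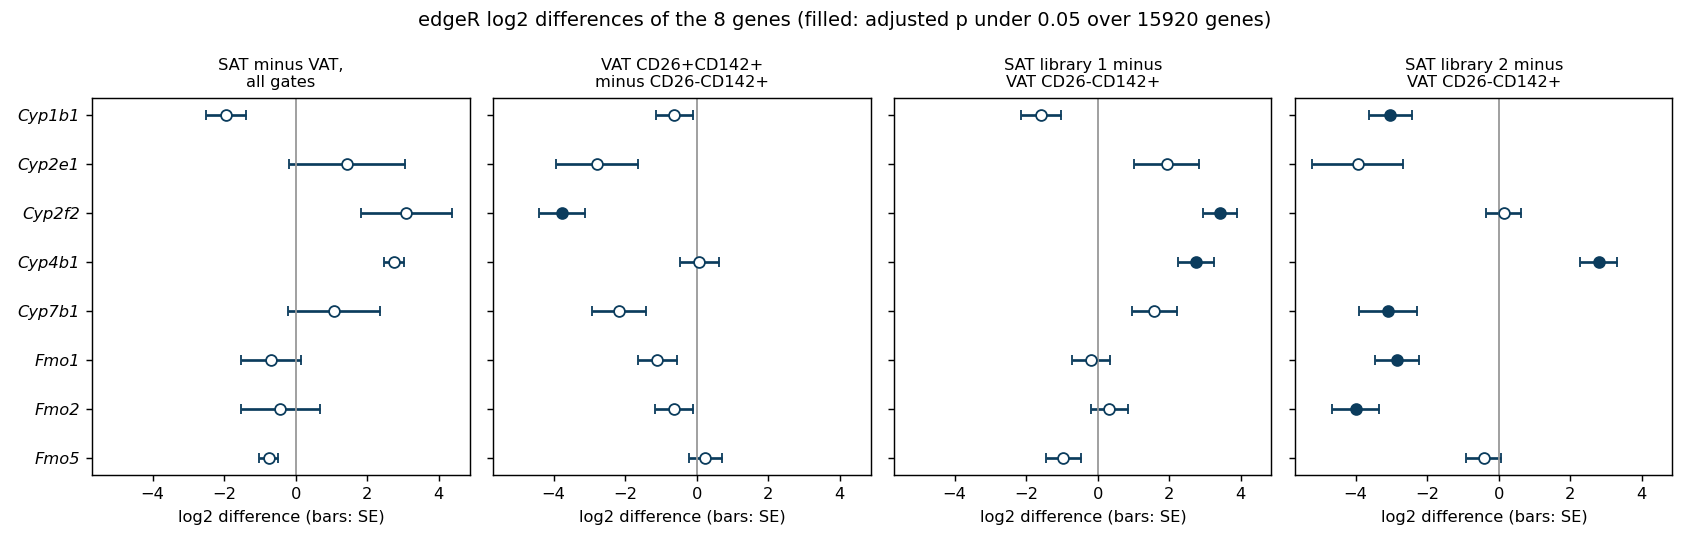
Log2 differences of the 8 genes with SE bars in 4 comparisons, each on the same axis; filled points have an edgeR adjusted p under 0.05 over all tested genes. Cyp4b1 lies near 2.8 in all 3 comparisons of SAT with VAT and near 0 between the VAT gates, and Cyp2f2 is filled between the VAT gates and for SAT library 1 but not for SAT library 2.

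Whether the gates differed by unequal amounts in SAT and VAT was also tested, in the 4-group fit. By title the SAT gates differ in both CD26 and CD142, and the VAT gates in CD26 alone. The library names likewise give CD142 to both VAT gates but not to both SAT gates. An unequal amount may thus go with CD142, with depot or with the library number of the SAT libraries, which cannot be told apart here. By title 5 of the 8 passed, against 6.61% of genes: Cyp2e1 with 8.66 (SE 1.81, adjusted p = 0.0419), Cyp2f2 with 7.05 (SE 0.89, adjusted p = 1.4e-04), Cyp7b1 with 6.84 (SE 1.18, adjusted p = 0.0019), Fmo1 with 3.76 (SE 0.84, adjusted p = 0.0114) and Fmo2 with 4.95 (SE 0.88, adjusted p = 0.0023). By library name none of the 8 passed, against 0.251% of genes, with 2 at an unadjusted p under 0.05 (4.47% of genes), 1 called by DESeq2 (0.534%) and 0 by limma-voom (0.0565%). The smallest adjusted p there was that of Fmo2, 0.0885, for a difference of -3.68 (SE 0.82).

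The SAT libraries were also set against each other, without a test because each is 1 library. They differ in library number as well as in gate, and within SAT these cannot be told apart. Their mitochondrial share, liver transcripts and epithelial transcripts differed too, as given above. Of the 8 genes, 6 were at least 2-fold higher in SAT library 1 than in SAT library 2 with at least 10 CPM there, and none was 2-fold lower, against 6.79% of tested genes higher and 6.78% lower. The ratios were 59.3 for Cyp2e1 (95% counting interval 32.9 to 119), 25.8 for Cyp7b1 (14.9 to 48.9), 19.9 for Fmo2 (18.7 to 21.2) and 9.74 for Cyp2f2 (8.24 to 11.6). They were 6.31 for Fmo1 (5.99 to 6.65), 2.72 for Cyp1b1 (2.57 to 2.88) and 0.690 for Fmo5 (0.598 to 0.795). In all, 5 of the 8 genes were lowest in SAT library 2, as were 22.7% of tested genes.

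Beyond the 5 P450 genes above, 89 others are in the table, and 29 of them passed the filter. None of the 29 passed between depots over all gates; 17 were higher and 12 lower in SAT, with a median log2 difference of 0.23 against 0.01 over all tested genes. Cyp26b1, which clears retinoic acid, was at 82.8 and 15.9 CPM in SAT libraries 1 and 2, against 1.32 CPM in the VAT CD26+CD142+ library and 1.05 and 3.70 CPM in the VAT CD26-CD142+ libraries. Cyp2s1 was at 1.08 and 1.44 CPM in SAT libraries 1 and 2, against 51.9 CPM in the VAT CD26+CD142+ library and 10.1 and 16.4 CPM in the VAT CD26-CD142+ libraries. Neither gene overlapped between depots, and within CD142+ cells both passed under both readings, with log2 differences for Cyp26b1 of 5.12 by library name and 2.74 by title (adjusted p = 0.0014 and 0.0205) and for Cyp2s1 of -3.61 and -3.19 (adjusted p = 0.0049 and 0.0039).

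Cyp27a1, the mitochondrial sterol 27-hydroxylase, was at 110 and 83.9 CPM in SAT libraries 1 and 2, against 248 CPM in the VAT CD26+CD142+ library and 412 and 373 CPM in the VAT CD26-CD142+ libraries. It was lower in SAT in every library, and passed within CD142+ cells by title (log2 -2.23, adjusted p = 0.0204) but not by library name (-1.84, adjusted p = 0.113). Of the 29, Cyp8b1, the sterol 12-hydroxylase of bile acid synthesis, alone passed between VAT gates, against 1.6% of tested genes. Cyp8b1 was at 6.92 CPM in CD26+CD142+ cells and 0.825 and 1.08 CPM in CD26-CD142+ cells (log2 2.86, SE 0.68, edgeR adjusted p = 0.0453). Although it is on the liver list, it was low in SAT library 1, at 1.08 CPM, and at 10.1 CPM in SAT library 2. Cyp2d9, another P450 of liver, had 134 and 0 counts in SAT libraries 1 and 2, 9 in the VAT CD26+CD142+ library and 77 and 4 in the VAT CD26-CD142+ libraries.

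**Figure D5:**
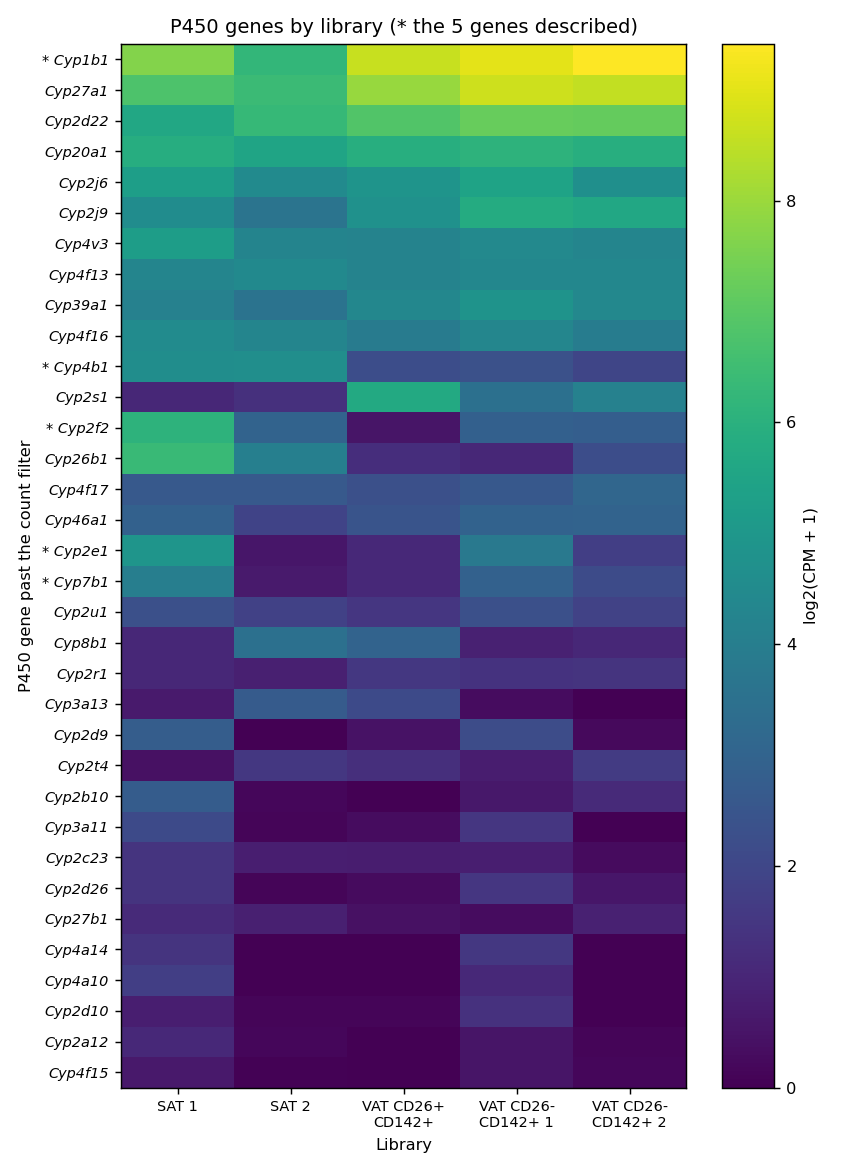
Heat map of log2(CPM + 1) for the P450 genes that passed the count filter, 1 row per gene in order of mean level and 1 column per library, with the 5 members starred; shades are compared along a row, since CPM is not scaled by length. Cyp2s1 and Cyp26b1 split by depot in opposite directions, and Cyp2d9, Cyp4a10 and Cyp4a14 are visible mainly in the libraries numbered 1.

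The genes that pass electrons to P450 enzymes and make or break down heme were counted next. All 13 were tested and none passed between depots over all gates (median log2 difference -0.09). Por, the P450 oxidoreductase, was at 228 and 178 CPM in SAT libraries 1 and 2, against 129 CPM in the VAT CD26+CD142+ library and 179 and 243 CPM in the VAT CD26-CD142+ libraries. The largest difference was that of Hmox1, the heme oxygenase, at -1.15 (adjusted p = 0.662). Fdxr, the ferredoxin reductase of mitochondrial P450 enzymes, was at 64.7 and 9.38 CPM in SAT libraries 1 and 2, 18.0 CPM in the VAT CD26+CD142+ library and 94.1 and 49.8 CPM in the VAT CD26-CD142+ libraries. It was the 1 gene of the 13 that passed within CD142+ cells by title (-2.94, edgeR adjusted p = 0.0059), against 6.48% of tested genes. By library name none of the 13 passed, against 2.36% of tested genes.

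Of 14 genes of the AHR pathway, 10 were tested and none passed over all gates (median -0.53). Ahr, the receptor, was at 5.41 and 11.7 CPM in SAT libraries 1 and 2, against 1.65 CPM in the VAT CD26+CD142+ library and 0.550 and 0.344 CPM in the VAT CD26-CD142+ libraries. It was thus higher in SAT, where Cyp1b1 was lower, and passed within CD142+ cells by library name (3.58, adjusted p = 0.0119) and by title (4.69, adjusted p = 6.1e-04). Ugt1a7c, a glucuronosyltransferase, was lower in SAT under both readings, by -3.92 and -2.88 (adjusted p = 0.0014 and 0.0036). Aldh3a1, an aldehyde dehydrogenase, was higher by library name by 5.10 (adjusted p = 0.0037) but did not pass by title, at 2.50 (adjusted p = 0.127). Cyp1a1, the classical AHR target, had 10 counts or fewer in every library.

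Of 15 genes of oxysterol and bile acid metabolism, 11 were tested and none passed over all gates (median -0.26). Abcg1, a sterol exporter, was at 17.9 and 4.19 CPM in SAT libraries 1 and 2, against 0.453 CPM in the VAT CD26+CD142+ library and 1.05 and 0.645 CPM in the VAT CD26-CD142+ libraries, and passed within CD142+ cells by library name (4.39, adjusted p = 0.0016) but not by title (2.30, adjusted p = 0.0523). Ch25h, which makes a substrate of Cyp7b1, was at or under 1.25 CPM in every library. Of 10 retinoid genes, 7 were tested and none passed over all gates (median -0.29). Within CD142+ cells the largest SAT minus VAT difference, among those reaching 10 CPM, was -7.83 for Aldh1a2 by title. By library name it was -5.94 for Aldh1a3. None of the 10 epoxygenase partners passed over all gates (median -0.10). Among them Ephx2, the soluble epoxide hydrolase, had 45 counts in VAT CD26+CD142+ cells and 489 and 373 counts in VAT CD26-CD142+ cells, a log2 difference of -3.37 (SE 0.61, adjusted p = 0.0091).

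Of 20 phase II genes, whose enzymes conjugate the products of P450 and FMO enzymes, 19 were tested. Within CD142+ cells 7 were higher and 12 lower in SAT by library name, with Mgst3 higher by a log2 difference of 2.09. By title 2 were higher and 17 lower. None passed between depots over all gates (median -0.42) and none between VAT gates, although 18 of 19 had a negative difference between VAT gates with a median of -0.89, against -0.03 over all tested genes. Gsta3, a glutathione transferase, was at 11.5 and 3.20 CPM in SAT libraries 1 and 2, against 64.7 CPM in the VAT CD26+CD142+ library and 158 and 156 CPM in the VAT CD26-CD142+ libraries. Sult1e1, the estrogen sulfotransferase, was at 144 and 182 CPM in SAT libraries 1 and 2, against 667 CPM in the VAT CD26+CD142+ library and 1953 and 1274 CPM in the VAT CD26-CD142+ libraries. Both were lower in SAT in every library, as Cyp1b1 was, and within CD142+ cells both passed under both readings. The log2 differences were -3.77 by library name and -5.61 by title for Gsta3 (adjusted p = 0.0015 and 4.8e-05) and -3.48 and -3.15 for Sult1e1 (adjusted p = 0.0079 and 0.0059).

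Likeness of pattern was measured as the root mean square difference of log2(CPM + 1), centred over the 5 libraries, against 9849 protein-coding genes, for the 7 members that spanned at least 2 log2 units. The nearest genes were Spata33, at 0.17, Apc2 and Heph for Cyp1b1, and Isg15, at 0.17, Tll1 and Esr1 for Cyp4b1. For Cyp2e1 they were Mdk, at 0.22, and then Apoa1 and Serpina3k, both on the liver list, at 0.27 and 0.30. Cyp7b1 was nearest to St6galnac2, at 0.14, Rhod and Hhip, none of them on that list, and Cyp2f2 to Abcc9, at 0.24, Cgref1 and Plin4. Fmo1 was nearest to Cryzl2, at 0.13, Itih2 and Fam71a, and Fmo2 to Bgn, at 0.23, Fscn1 and Plekha6. Among the members themselves, the closest pairs were Cyp2e1 with Cyp7b1, at 0.55, and Fmo1 with Fmo2, at 0.67. With 5 libraries these distances describe the libraries and carry no test.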

How the data were processed

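RNA was measured in 5 bulk libraries. The authors deposited raw read counts, 1 per Ensembl gene and library, not normalized. The submitters' processing notes name the build mm10 and the tools featureCounts 1.5.0-p3, HISAT2 2.0.5 and CASAVA. The annotation release and strand setting are not given in the sources used here. No column of another sample was present (0). Gene lengths in bases come with the deposited table.

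Library sizes were corrected by TMM (trimmed mean of M values) in edgeR 4.0.16 (R 4.3.3) and values given as CPM, or per gene length as RPKM. The filter was filterByExpr with a count of 10 as minimum; 15920 genes passed it and 38612 did not. Differences were tested by edgeR's quasi-likelihood F test (robust), with p-values adjusted by Benjamini-Hochberg over all tested genes and a threshold of 0.05. Depot was fitted over all libraries with 3 residual degrees of freedom, the CD26 gate with depot as a term with 2, and other contrasts in a 4-group fit with 1. The SE is the size of the log2 difference divided by the square root of F. The SAT libraries, 1 per gate, were compared without a test, by a 2-fold rule on log2(CPM + 1) with 10 CPM in the higher library. Intervals at 95% are exact Poisson for a level and exact conditional for a ratio, and cover counting error alone, as reads with no molecular identifiers may repeat a molecule. Scripts were tested on simulated data.

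The members and lists were chosen with earlier results of these data known. From each list, genes past the threshold and those with the largest differences among genes reaching 10 CPM could be named, and genes needed to describe a list. Promoters are RefSeq, GRCm38.p6. Alternatives were no filter, DESeq2 1.42.0 and its size factors, limma-voom (limma 3.58.1), each library left out, the library number as a block, the libraries numbered 2 alone, and CD26 status as a term. RefSeq protein sequences were not used here, and some genes are not reported here.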

Additional observations from a re-analysis of the deposited data

Results flagged for a closer look

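By title, 5 of the 8 genes passed the test of whether the gates differ by unequal amounts in SAT and VAT, which is why they are listed. The log2 differences were 8.66 for Cyp2e1, 7.05 for Cyp2f2, 6.84 for Cyp7b1, 3.76 for Fmo1 and 4.95 for Fmo2. Each compares the SAT libraries by titles that go against their names and their sort genes. By title the SAT gates also differ in CD142, while both VAT gates are CD142+, so depot and CD142 cannot be told apart. Library number differs between the SAT gates too, and cannot be told apart from gate there. Read by library name, the same differences were -3.09, 0.49, -2.51, -1.56 and -3.68, and none passed. Each SAT gate is 1 library under both readings.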

How the results depend on the processing

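For the depots over all gates, 8 genes were called, and 70 without a filter, 465 with DESeq2, 0 with limma-voom (978 at an unadjusted p under 0.05), 0 in the libraries numbered 2 alone (1439), and 0 and 83 with CD26 status by title and by library name as a term. Leaving out 1 library gave 0 to 17, with 17 without SAT library 1, 11 without SAT library 2 and 0 without any 1 VAT library. Of the members, 1 was called without a filter (Cyp4b1, adjusted p = 0.0122), 2 with DESeq2 and 2, Cyp2f2 and Cyp4b1, with CD26 status by library name as a term.

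Library numbers come from library names and do not establish a pairing. With the number as a replicate block 5 genes were called between depots, and the differences of Cyp2e1 and Cyp7b1 turned to -0.23 and -0.38. In the libraries numbered 2 alone they were -1.79 and -1.97.

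For the VAT gates, 254 genes became 491 without a filter; the member count of 1 became 2 without a filter and 0 with limma-voom, and with 1 VAT CD26-CD142+ library left out no test remained. The gate by title (0 genes) gave 16 with DESeq2, and 0 genes and 0 members without either VAT CD26-CD142+ library. Without a SAT library this fit compares the VAT gates alone. Without the VAT CD26+CD142+ library it compares SAT library 1 with SAT library 2 alone. Apart from sign, these fits are the same by title and by library name. They check neither reading. Their counts, given below under library name, are the same by title. The highest member count with 1 library left out, 4, is that of the fit without the VAT CD26+CD142+ library. The gate by library name (95 genes, 1 member) gave 775 genes and 3 members without a filter, 1338 and 5 with DESeq2, and 138 to 2034 genes with 1 to 4 members with 1 library left out, the highest without VAT CD26-CD142+ library 2. Leaving out the VAT CD26+CD142+ library gave 522, and leaving out SAT library 1 or 2 gave 383 or 356. Without a filter, depot within CD142+ cells by library name gave 727 genes, and the gate by depot difference 1621 by title. By library name that difference (40 genes, 0 members) gave 181 genes and 1 member without a filter, 85 and 1 with DESeq2, and 9 genes with limma-voom.

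With 1 library left out, the depot differences ran from -3.47 to 3.13 for Cyp2e1, -2.66 to 2.01 for Cyp7b1, -2.57 to 0.089 for Fmo1 and -3.82 to 0.50 for Fmo2, and that of Cyp4b1 between VAT gates from -0.15 to 0.35. For the gate by title they ran from -0.61 to 1.43 for Cyp1b1, -2.78 to 5.86 for Cyp2e1, -3.76 to 3.27 for Cyp2f2, -0.10 to 0.15 for Cyp4b1, -2.16 to 4.66 for Cyp7b1, -1.09 to 2.65 for Fmo1, -0.62 to 4.31 for Fmo2 and -0.55 to 0.26 for Fmo5, and for Cyp4b1 by library name from -0.041 to 0.18. By title the ends for all genes but Cyp4b1 came from the fits that compare the VAT gates alone or the SAT libraries alone. Cyp2f2 by title was 1.11 with limma-voom.
The cause of these changes was not tested. Of 432 member values recomputed, 376 kept their direction and, where a test was left, their side of the threshold. The VAT gate values with 1 VAT CD26-CD142+ library left out have no test and were judged on the log2 difference alone. Counting error limits Cyp2e1 and Cyp7b1 in SAT library 2, with 11 and 13 counts.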
